A study of Homo sapiens with 6 samples.

Results

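The 29 genes described here have been reported, in other cells and tissues, as targets of the microRNA miR-27. They were found by their symbols in the deposited expression table, and all 29 were among its 58174 genes, with PHB listed under the older symbol of PHB1. The table holds 6 samples whose labels name Huh-7, a line established from human liver cancer. There were 3 samples given miR-27a-3p mimics and 3 given a negative control (NC), each by lipid transfection, and RNA was taken 48 h later from cells detached with trypsin. No other agent, and no cisplatin, is named in the labels of either group, although the series concerns cisplatin sensitivity. A mimic is a synthetic double-stranded RNA that imitates a mature microRNA, and the negative control is described in the labels only as NC. Whether samples sharing a group were grown as separate cultures is not in the labels. Each p-value therefore measures the spread between these samples alone, which may be technical.

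MicroRNAs guide Argonaute proteins to messenger RNAs, mostly through pairing of the seed, the stretch near the 5′ end of the microRNA, with sites in 3′ untranslated regions (3′ UTRs). Paired messengers are destabilised, translated less, or both, and RNA sequencing sees only the first of these. miR-27a and its paralog miR-27b have the same seed and are best known for restraining fat cell formation and for targets among transcription factors, nuclear receptors and signalling proteins.

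The mature sequences from RefSeq (build GRCh38.p14) are shown so that each target site can be read against the seed, which is in capitals and covers bases 2 to 8.
hsa-miR-27a-3p: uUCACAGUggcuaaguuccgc
hsa-miR-27b-3p: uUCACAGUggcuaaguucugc
Both have the seed UCACAGU. The DNA-letter word that pairs with it is ACTGTGA (a 7mer-m8 match), which becomes ACTGTGAA when followed by A (an 8mer), while CTGTGAA alone is a 7mer-A1 and CTGTGA alone a 6mer. These words were searched on the transcript strand in the longest annotated 3′ UTR of every gene in GENCODE 29 (GRCh38).

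Of the 29 members, 16 (55.2%) held an 8mer and 25 (86.2%) held an 8mer or a 7mer. Among 11527 tested genes with an annotated 3′ UTR the shares were 7.08% and 31.6%. The members had been reported as targets partly through such matches, so this difference describes how they were chosen. Their 3′ UTRs were also longer, with a median of 3209 bases against 1596. IGF1R and VDR held a 6mer only, and no match lay in the annotated 3′ UTRs of PKMYT1 (424 bases) and RXRA (405 bases). The exons of RXRA cover 11083 bases, so little of its sequence was searched. The 3 matches of APC lay in exons that are coding in other transcripts of the gene. The search was then limited to the longest 3′ UTR among a gene's protein-coding transcripts and to bases outside coding exons. There 24 members held an 8mer or a 7mer and 14 an 8mer, and PPARG was left with no match. For PPARG that 3′ UTR has 301 bases, and its other coding transcripts were not searched. The PPARG 8mer of the first search lay outside coding exons, so coding transcripts may still hold it. A match describes letters only and does not show that a site was used.

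The following windows of 28 bases are shown 5′ to 3′ with the match in capitals, first for members that were lower in mimic samples and then for members with 8mers that were not.
FBXW7 upstream site: gaaaagcttaaaaaaattACTGTGAAtt
FBXW7 downstream site: agccacaactcaagctgaACTGTGAAag
SMAD4: taactttaggtccattttACTGTGAAtg
LRP6: aatatctttctgttacccACTGTGAAtg
RUNX1: gaagattcccggagggaaACTGTGAAtg
FOXO1 upstream site: ttatactctttttgtaatACTGTGAtgg
FOXO1 downstream site: ctctattgtaagcttcccACTGTGAtga
SMAD2: cctgttgtttgcccagccACTGTGAtgg
CYP1B1: cccagaacttagcctttacCTGTGAAgt
FADD: ccaggaaggtagcccagcACTGTGAAga
PHB: gctcccaccccagaaatcACTGTGAAat
TXN2 upstream site: tcatcccttccacctcctACTGTGAAga
GRB2: tttggtaggtagtgattaACTGTGAAta
MET: aggccacaaaaacactgcACTGTGAAca
All of these lie in 3′ UTR exons of GENCODE 29. The FBXW7 windows are at chr4:152322369-152322396 and chr4:152321493-152321520 (minus strand), and the FOXO1 windows at chr13:40558614-40558641 and chr13:40557040-40557067 (minus strand). SMAD4 is at chr18:51080429-51080456 (plus), SMAD2 at chr18:47838457-47838484 (minus), LRP6 at chr12:12119771-12119798 (minus), RUNX1 at chr21:34791805-34791832 (minus) and CYP1B1 at chr2:38067970-38067997 (minus). FADD is at chr11:70206535-70206562 (plus), PHB at chr17:49404890-49404917 (minus), TXN2 at chr22:36467280-36467307 (minus), GRB2 at chr17:75318099-75318126 (minus) and MET at chr7:116797670-116797697 (plus). The same 8-base word thus stands in FBXW7, which fell 2.085-fold in the fit described below, and in PHB, which rose 1.66-fold in that fit.

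Expression was deposited as FPKM, a fragment number divided by gene length and by the library's mapped total, and no read numbers were given. FPKM times exon length piled up at a single value in each sample, and taking that value as 1 fragment implies 17000000 to 21100000 fragments in control samples and 25100000 to 31000000 in mimic samples. Mitochondrial genes held 16.9% to 32.8% of summed FPKM in controls and 14.6% to 38.9% in mimic samples, with sample 3 the highest in each group. Genes at 1 FPKM or more numbered 15109 to 15494 in controls and 13007 to 13250 in mimic samples. Fewer genes of the whole table thus reached that level in every mimic sample. The labelled cell type was checked with 10 hepatocyte and hepatoma markers, and none of them reached 1 FPKM in every sample. ALB (albumin) was at or below 0.011 FPKM and AFP (alpha-fetoprotein) at or below 0.0237 in all 6 samples, and APOB, APOH and TTR were listed at 0 throughout. The 10 markers summed to 1.08 to 2.11 FPKM in controls and 0.912 to 1.27 in mimic samples. Within that sum SERPINA1 was at 0.708 to 1.49 FPKM in controls and 0.0787 to 0.276 in mimic samples. HNF4A moved the other way, from 0.129 to 0.246 in controls to 0.757 to 0.980 in mimic samples. The data therefore go against the label, and the cells are called here cells labelled Huh-7. Of 10 markers of other cell types, COL1A1, ACTA2 and CD68 were above 1 FPKM in all samples, while PTPRC, CD3E, MS4A1 and HBB stayed at or below 0.0223. Those 10 summed to 42.6 to 51.0 FPKM in controls and 31.7 to 40.4 in mimic samples, and moved in both directions. CD68, a macrophage and lysosome marker, was at 7.65 to 9.04 FPKM in controls and 10.8 to 19.0 in mimic samples, while the collagen gene COL1A1 was at 17.0 to 17.8 and 6.66 to 9.49, and the endothelial cadherin gene CDH5 at 0.886 to 2.08 and 0.190 to 0.455. The part of these markers in the results was not tested.

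Differences were tested with limma on log2(FPKM + 0.5) over the 14439 genes averaging 1 FPKM or more, and a gene was called at an adjusted p under 0.05. A positive log2 fold change is higher in mimic samples. Its standard error is given as SE, and the scale understates the change of low genes. Of the 29 members, 27 passed the filter and MSTN and SFRP1 did not. CYP1B1 and ZBTB10 passed through their controls, since their mimic means lay under 1 FPKM. Of the 27, 9 were lower in mimic samples, or 33.3%, where 39.6% of all tested genes were lower. Another 4 were higher, or 14.8%, where 12% of all tested genes were higher. The members are all annotated as protein-coding, and of 11571 tested protein-coding genes 32.7% were lower and 14% higher. The share of members called was thus near the share of all genes, and of protein-coding genes, in each direction. On log2(FPKM + 0.5), CYP1B1, SMAD2 and FBXW7 alone among the 27 were called and at least 2-fold lower, beside 18.5% of all tested genes. No member was called and at least 2-fold higher, beside 2.47% of all genes. With 0.1 added in place of 0.5, ZBTB10 also fell more than 2-fold (log2 fold change -1.10). Among the 27 tested members, mimic values lay below all control values in 11, against 44.3% of tested genes. They lay above all control values in 4, against 16.2%. MSTN and SFRP1, which were not tested, also had all mimic values below the controls.

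The whole table was shifted, with a median log2 fold change of -0.29 over all tested genes and -0.27 over the 27 members. Over tested protein-coding genes it was -0.17. After median-of-ratios scaling, which moved the median of all genes to 0.01, 5 members were lower and 7 higher, and their median was 0.04. On that scale 27.4% of all tested genes were lower and 26.9% higher. The median of protein-coding genes was there 0.13, with 2358 of 11571 lower and 3678 higher. CYP1B1, SMAD2, FBXW7, ZBTB10 and SMAD4 were lower on both scales, and PHB, FADD, TXN2 and RXRA were higher on both. FOXO1, LRP6, BTG1 and RUNX1 were lower on the deposited scale alone, with log2 fold changes of -0.31, -0.40, -0.34 and -0.22 after scaling. GRB2, MET and VDR were higher after scaling alone.

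**Figure D1:**
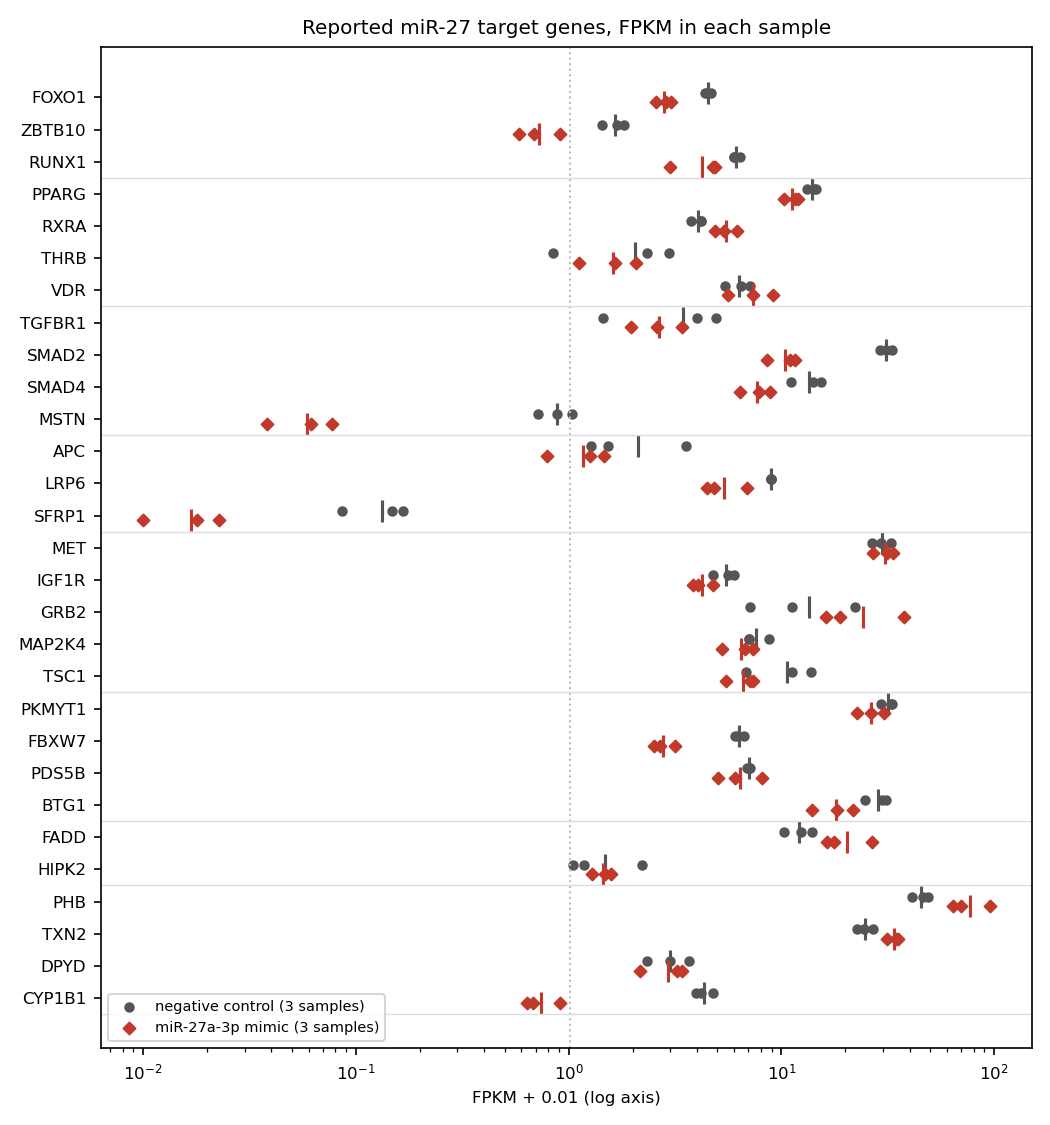
FPKM of the 29 members in each sample, plotted as FPKM + 0.01 on a log axis, with grey circles for the 3 negative control samples, red diamonds for the 3 mimic samples, a vertical tick at each group mean, and a dotted line at 1 FPKM. Thin horizontal lines part the functional groups. CYP1B1, SMAD2 and FBXW7 show the mimic samples well to the left of the controls, and PHB to the right, while TGFBR1, THRB and HIPK2 overlap.

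**Figure D2:**
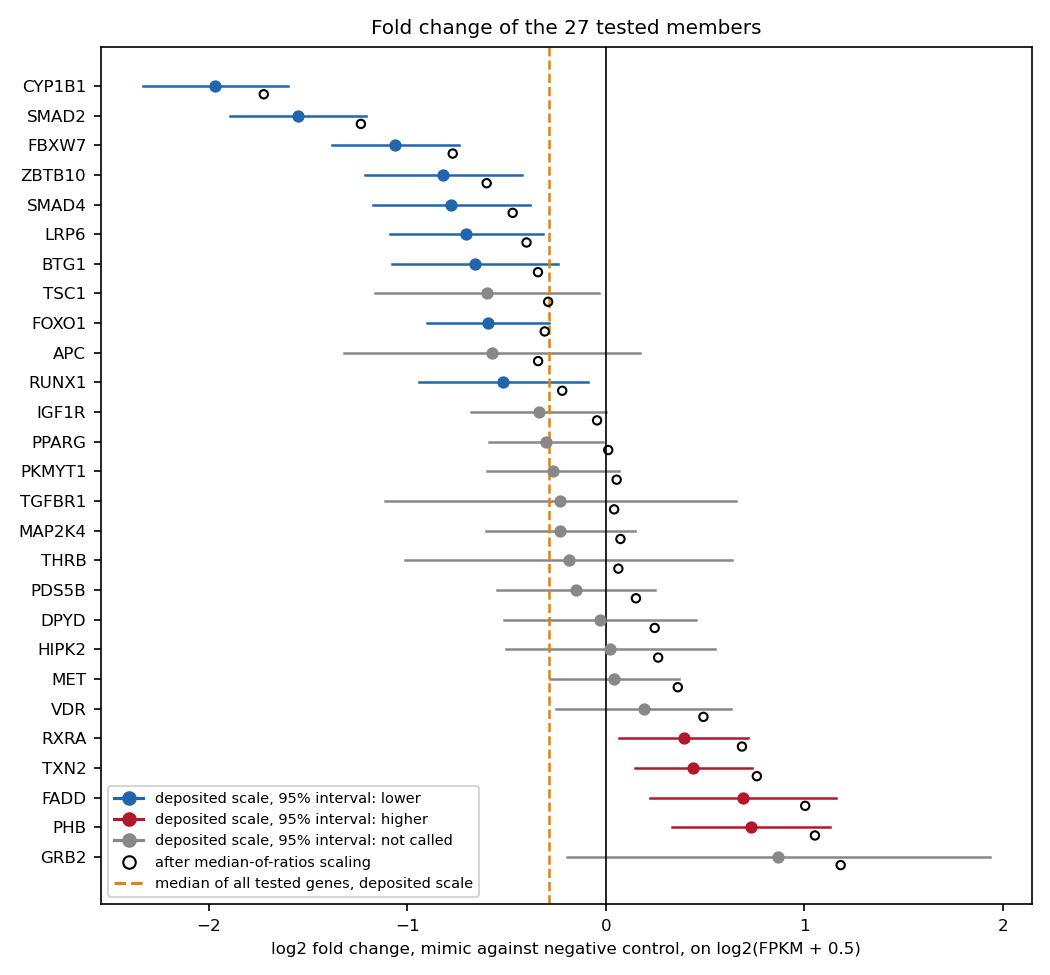
Log2 fold change of the 27 tested members on log2(FPKM + 0.5), with 95% intervals, coloured by call at adjusted p under 0.05. Open circles give the same value after median-of-ratios scaling and the dashed line is the median of all tested genes, -0.29. The 9 lower members run from CYP1B1 at -1.97 to RUNX1 at -0.52, and scaling moves every member to the right.

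FOXO1, ZBTB10 and RUNX1, the 3 transcription factors outside the nuclear receptor family, were called lower on the deposited scale. FOXO1, a forkhead factor held in check by insulin and AKT signalling, measured 4.34, 4.46 and 4.67 FPKM in controls 1, 2 and 3, and 2.57, 2.85 and 3.01 in mimic samples. The groups did not overlap and each varied little (log2 fold change -0.59, SE 0.13, limma adjusted p = 0.00648). ZBTB10, a zinc finger repressor reported to act on SP factor genes, was at 1.68, 1.81 and 1.42 FPKM in controls and 0.678, 0.896 and 0.572 in mimic samples. Every mimic sample was lower than every control (-0.82, SE 0.17, limma adjusted p = 0.00479). RUNX1, a factor best known from blood development, was at 6.38, 6.00 and 5.97 FPKM in controls and 2.999, 4.75 and 4.89 in mimic samples. Mimic sample 1 was far below the others, and the call was marginal (-0.52, SE 0.19, limma adjusted p = 0.0461). It was lost in 15 of 19 alternatives (adjusted p 0.0358 to 0.745), among them leaving out control sample 1, 2 or 3 or mimic sample 1 or 2. Quantile normalization, under which 5 members were lower against 22.8% of all genes and 7 higher against 24.9%, left ZBTB10 at -0.02 (adjusted p = 0.941, range over its 18 alternatives 0.00436 to 0.941) and FOXO1 at -0.04 (0.806, range 0.00395 to 0.806).

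Of the 9 FOXO, RUNX and SP factor genes listed as partners of these, 8 were tested. Among those, 3 (37.5%) were lower and none higher, beside 39.6% and 12% of all tested genes. After scaling 1 was lower and 1 higher, beside 27.4% and 26.9% of all tested genes. Without sample 3 of both groups 1 was lower. SP4 went from 2.99 ± 0.399 to 1.68 ± 0.0780 FPKM (SD, n = 3; log2 fold change -0.67, SE 0.15) and SP1 from 35.3 ± 1.92 to 23.7 ± 2.85 (-0.57, SE 0.14). SP1 was not called after median-of-ratios scaling (-0.25).

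Among the nuclear receptors, ligand-gated transcription factors, RXRA was called higher and PPARG, THRB and VDR were not called. RXRA, the shared dimer partner of many of these receptors, was at 4.17, 4.16 and 3.73 FPKM in controls and 6.17, 5.37 and 4.84 in mimic samples. The groups did not overlap, and the difference was small (log2 fold change 0.39, SE 0.14, limma adjusted p = 0.0461). The call was lost after GC and length correction (0.19, adjusted p = 0.282), when low genes were kept in the fit, and without control sample 1, 2 or 3 or mimic sample 1 or 2 (range over 18 alternatives 0.00104 to 0.282). PPARG, the regulator of fat cell formation, was at 14.2, 14.6 and 13.1 FPKM in controls and 10.3, 11.9 and 11.5 in mimic samples. All 3 mimic samples lay below the controls, by a log2 fold change of -0.30 that did not pass (95% interval -0.59 to -0.01, limma adjusted p = 0.0767) and that lay close to the median of all genes, -0.29. After median-of-ratios scaling it was 0.01, and after GC and length correction PPARG was called lower (-0.34, adjusted p = 0.0440, range over 19 alternatives 0.0440 to 0.938). THRB, a thyroid hormone receptor, overlapped between groups at 0.833 to 2.94 FPKM in controls and 1.11 to 2.06 in mimic samples (95% interval -1.01 to 0.64). VDR, the vitamin D receptor, was at 5.39 to 7.12 FPKM in controls and 5.62 to 9.16 in mimic samples (0.19, 95% interval -0.25 to 0.63).

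Of the 12 other receptors that pair with RXR, 7 were tested. None was lower, beside 39.6% of all tested genes, and 3 (42.9%, beside 12%) were higher, or 6 after scaling (beside 26.9%). Without control sample 1, control sample 2 or mimic sample 2, 1 was higher. The retinoic acid receptor gene RARA went from 6.82 ± 1.97 to 11.6 ± 1.51 FPKM (SD, n = 3; 0.75, SE 0.20), and PPARD, a sister of PPARG, from 5.76 ± 0.648 to 8.21 ± 0.634 (0.48, SE 0.14). After GC and length correction none of the 7 was called higher and 1 was called lower, and there RARA was at 0.35 and PPARD at 0.15.

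In the TGF-beta and activin pathway, in which ligands bind receptor kinases that phosphorylate SMAD2 and SMAD3, which then join SMAD4, the members SMAD2 and SMAD4 fell and the receptor TGFBR1 did not pass. SMAD2 was at 29.2, 33.0 and 30.9 FPKM in controls and 8.52, 11.5 and 10.9 in mimic samples. The gap between groups was several times the spread within them (log2 fold change -1.55, SE 0.15, limma adjusted p = 0.000128), and 6.86% of tested genes had a lower fold change. The call held in all 19 alternatives, with values from -1.63 to -1.22. GENCODE 29 gives SMAD2 a 3′ UTR of 32870 bases with 2 7mer-m8 matches, 1 7mer-A1 and 9 6mers. SMAD4, the common partner of the receptor-activated SMADs, was at 15.4, 11.1 and 14.1 FPKM in controls and 8.80, 7.80 and 6.40 in mimic samples. The groups did not overlap (-0.78, SE 0.17, limma adjusted p = 0.00601), and leaving out sample 3 of both groups took the adjusted p to 0.0537, the upper end of its range from 0.00418 over 19 alternatives.

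TGFBR1, a type I receptor kinase, was at 1.43, 4.90 and 4.005 FPKM in controls and 3.38, 1.94 and 2.58 in mimic samples. Control sample 1 was the lowest of all 6, and the difference of -0.23 had a 95% interval of -1.11 to 0.66. Without that sample it was called lower (-0.68, limma adjusted p = 0.0465, lowest of 18 alternatives, which reached 0.946). MSTN, which encodes the muscle growth inhibitor myostatin, was at 1.03, 0.711 and 0.874 FPKM in controls and 0.0518, 0.0282 and 0.0670 in mimic samples. Every mimic value was far below every control value, but the gene did not pass the filter. Its fall was not compared with that of other genes at the same level. In a fit of 35796 genes, with low ones kept, 24.5% were lower and 4.27% higher, and 10 and 2 of the 29 members were. There MSTN had a log2 fold change of -1.31 (SE 0.13, limma adjusted p = 0.00134).

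Of 18 further genes of this pathway, 16 were tested, with 6 lower (37.5%, beside 39.6% of all genes) and 1 higher (6.25%, beside 12%). After scaling 3 were lower and 6 higher, beside 27.4% and 26.9% of all genes. The feedback inhibitors SMAD7 and SKIL fell, SMAD7 from 13.9 ± 0.756 to 6.09 ± 0.756 FPKM (SD, n = 3; -1.14, SE 0.14) and SKIL from 12.2 ± 1.58 to 4.60 ± 1.24 (-1.33, SE 0.19). The ligand gene TGFB1 rose from 19.0 ± 1.39 to 28.1 ± 1.57 (0.55, SE 0.13), and was at 0.13 after GC and length correction, where it was not called.

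The Wnt members act at successive steps, SFRP1 as a secreted antagonist, LRP6 as a co-receptor and APC as a scaffold of the complex that marks beta-catenin for destruction. LRP6 was at 8.92, 8.95 and 8.92 FPKM in controls, which were nearly identical, and at 4.82, 6.87 and 4.47 in mimic samples. All mimic samples were lower (log2 fold change -0.70, SE 0.17, limma adjusted p = 0.00882). The call was lost under the 3 other scalings and without sample 3 of both groups (adjusted p 0.0550 to 0.0908, range over 19 alternatives 0.00297 to 0.0908). APC was at 1.52, 1.26 and 3.54 FPKM in controls and 1.45, 1.25 and 0.779 in mimic samples. Control sample 3 stood apart and the groups overlapped (-0.57, 95% interval -1.32 to 0.17). SFRP1 was barely present, at 0.156, 0.137 and 0.0759 FPKM in controls and 0.0126, 0 and 0.00791 in mimic samples, and did not pass the filter. Mimic values were all below control values, and in the fit that kept low genes its log2 fold change was -0.30 (SE 0.08, limma adjusted p = 0.0288). As for MSTN, no comparison with genes at the same level was made.

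Among 20 further Wnt receptor and destruction complex genes, 17 were tested. Of those, 2 were lower (11.8%, beside 39.6% of all genes) and 4 higher (23.5%, beside 12%). After scaling 1 was lower and 8 were higher, beside 27.4% and 26.9% of all genes. After GC and length correction 1 was higher, as without mimic sample 2, and 2 were higher without control sample 1, 2 or 3. The co-receptor paralog LRP5 moved opposite to LRP6, from 16.5 ± 0.692 to 29.1 ± 2.94 FPKM (SD, n = 3; 0.79, SE 0.13). GSK3A, a kinase of the destruction complex, rose from 18.6 ± 2.51 to 31.8 ± 7.24 (0.74, SE 0.20). The Wnt receptors FZD4 and FZD6 fell, FZD4 from 7.30 ± 0.850 to 3.09 ± 0.415 (-1.12, SE 0.15) and FZD6 from 8.18 ± 1.52 to 4.73 ± 0.601 (-0.72, SE 0.17), although FZD6 was not called after scaling (-0.42).

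None of the 5 growth factor receptors, adaptors and kinases was called by limma on the deposited scale, and TSC1 alone had an unadjusted p under 0.05. MET, the hepatocyte growth factor receptor, was at 29.4, 32.7 and 26.6 FPKM in controls and 33.4, 31.2 and 26.98 in mimic samples. The groups overlapped, and the 95% interval of the log2 fold change ran from -0.28 to 0.37. IGF1R, a receptor of insulin-like growth factors, was at 6.00, 5.59 and 4.75 FPKM in controls and 4.02, 4.75 and 3.83 in mimic samples, where mimic sample 2 almost equalled control sample 3 (-0.34, 95% interval -0.68 to 0.0033). GRB2, the adaptor that links receptors to RAS activation, was at 22.1, 7.12 and 11.2 FPKM in controls and 37.5, 18.9 and 16.1 in mimic samples. Sample 1 was the highest in each group, and the groups overlapped. Its log2 fold change was the largest positive value among the members, 0.87 (SE 0.45, limma adjusted p = 0.148), and leaving out control sample 1 raised it to 1.29 (adjusted p = 0.0327, range over 19 alternatives 0.00853 to 0.408). MAP2K4, an activator of JNK and p38 kinases that holds an 8mer and a pair of 7mer-m8 matches, was at 7.04 to 8.72 FPKM in controls and 5.23 to 7.32 in mimic samples (-0.23, 95% interval -0.61 to 0.15). TSC1, a subunit of the complex that inhibits mTORC1, was at 11.3, 6.81 and 13.7 FPKM in controls and 7.10, 5.46 and 7.31 in mimic samples. Control sample 2 fell within the mimic range (-0.60, SE 0.25, limma adjusted p = 0.0733), and without it TSC1 was called lower (-0.87, adjusted p = 0.00842, range over 19 alternatives 0.00842 to 0.444).

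Of 18 further genes of these routes, 17 were tested, with 5 lower (29.4%, beside 39.6% of all genes) and 2 higher (11.8%, beside 12%). After scaling 2 were lower and 6 higher, beside 27.4% and 26.9% of all genes. MAPK8, which encodes the kinase JNK1 acting below MAP2K4, fell from 8.83 ± 1.02 to 3.51 ± 0.382 FPKM (SD, n = 3; -1.22, SE 0.15), and the docking protein gene GAB1 from 2.97 ± 0.539 to 1.56 ± 0.126 (-0.74, SE 0.17). MAP2K3, a p38 kinase activator, rose from 12.0 ± 2.05 to 28.3 ± 5.82 (1.19, SE 0.19), and MAP2K6, another, from 20.3 ± 3.79 to 27.8 ± 2.41 (0.45, SE 0.16).

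Of the 4 genes of cell cycle control, cohesion and ubiquitin ligation, FBXW7 and BTG1 were lower. FBXW7, the subunit by which an SCF ubiquitin ligase recognises cyclin E, MYC and other proteins, was at 6.24, 6.02 and 6.69 FPKM in controls and 2.67, 3.14 and 2.52 in mimic samples. Every mimic sample was below every control and replicates lay close together (log2 fold change -1.06, SE 0.14, limma adjusted p = 0.000473). The call held in all 18 alternatives, with values from -1.16 to -0.58. BTG1, an antiproliferative protein that binds deadenylases, was at 29.6, 30.9 and 24.7 FPKM in controls and 21.8, 18.3 and 14.0 in mimic samples. The groups did not overlap (-0.66, SE 0.18, limma adjusted p = 0.0162), and the call was lost without control sample 1 (0.0516) or control sample 2 (0.0559), and after GC and length correction (0.0528), within a range of 0.00512 to 0.0870 over 19 alternatives.

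PKMYT1, a kinase that restrains CDK1, was at 32.7, 33.2 and 29.3 FPKM in controls and 26.4, 22.6 and 30.3 in mimic samples, with mimic sample 3 inside the control range (-0.27, 95% interval -0.60 to 0.07). It has the highest GC content of the 29, 66.2%, and was called lower after GC and length correction (-0.71, limma adjusted p = 0.00289, range over 19 alternatives 0.00289 to 0.786). PAQR4 and KREMEN2 on the opposite strand overlap 31.6% of its exon bases, and whether counting used strand is not stated. PDS5B, a cohesin regulator, was steady at 6.86 to 7.12 FPKM in controls and spread from 5.04 to 8.06 in mimic samples (-0.15, 95% interval -0.55 to 0.25). All 20 partner genes of this group were tested, with 4 lower (20%, beside 39.6% of all genes) and 3 higher (15%, beside 12%). After scaling 3 were lower and 6 higher, beside 27.4% and 26.9% of all genes. WEE1, the other main kinase that inhibits CDK1, fell from 23.6 ± 2.69 to 10.9 ± 1.29 FPKM (SD, n = 3; -1.08, SE 0.15), and CDK1 from 81.8 ± 4.95 to 46.9 ± 6.02 (-0.80, SE 0.14). SKP1, the adaptor that holds FBXW7 in its ligase, rose from 40.8 ± 8.53 to 81.5 ± 26.9 (0.96, SE 0.25), as did the CDK-activating phosphatase gene CDC25B, from 41.7 ± 5.43 to 64.7 ± 10.4 (0.63, SE 0.16).

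The cell death members differed. FADD, the adaptor between death receptors and caspase-8, was at 12.3, 13.9 and 10.3 FPKM in controls and 26.6, 17.7 and 16.4 in mimic samples. Mimic sample 1 was the highest and no values overlapped (log2 fold change 0.69, SE 0.20, limma adjusted p = 0.0216), although FADD carries an 8mer from base 80 of its 3′ UTR. The call was lost when low genes were kept in the fit (0.0555), without control sample 3 (0.0708) and without sample 3 of both groups (0.0542), within a range of 0.00282 to 0.0708 over 19 alternatives. An antisense gene overlaps 54.9% of its exon bases, with mean levels of 0.334 FPKM in controls and 0.643 in mimic samples. HIPK2, a kinase that phosphorylates p53, has 2 8mers in a 3′ UTR of 11357 bases. It was at 1.04, 2.21 and 1.17 FPKM in controls and 1.28, 1.57 and 1.48 in mimic samples, with all mimic values inside the control range (95% interval -0.50 to 0.55). It was called higher after quantile normalization (0.77, adjusted p = 0.0427, range over 18 alternatives 0.0427 to 0.979).

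Of 10 death receptor and HIPK partners, all tested, 3 (30%) were lower and none higher, beside 39.6% and 12% of all genes. After scaling 3 were lower and 1 higher, beside 27.4% and 26.9% of all genes. CFLAR, which encodes the caspase-8 inhibitor c-FLIP, fell from 18.8 ± 1.65 to 9.19 ± 2.81 FPKM (SD, n = 3; -1.03, SE 0.20), and the TRAIL receptor gene TNFRSF10B from 40.1 ± 6.66 to 22.0 ± 3.22 (-0.85, SE 0.17).

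The mitochondrial and metabolic members included the most strongly lower gene, CYP1B1, and a pair of higher ones, PHB and TXN2. CYP1B1, a cytochrome P450 that oxidises xenobiotics and oestrogens, was at 4.78, 4.17 and 3.98 FPKM in controls and 0.670, 0.900 and 0.628 in mimic samples. All mimic values lay far below the controls (log2 fold change -1.97, SE 0.16, limma adjusted p = 6.74e-05), and 2.67% of tested genes had a lower fold change. The call held in all 18 alternatives, with values from -2.41 to -1.29. CYP1B1-AS1, which overlaps 678 of its 6014 exon bases on the opposite strand, went from a mean of 14.8 to 3.88 FPKM. Reads in that shared stretch cannot be told apart if counting ignored strand. PHB, a scaffold protein of the inner mitochondrial membrane, was at 48.7, 46.4 and 41.0 FPKM in controls and 95.2, 64.3 and 70.2 in mimic samples. The groups were well apart (0.73, SE 0.17, limma adjusted p = 0.00820) and the call held in all 19 alternatives, with values from 0.47 to 1.06. The summed level of its 21 annotated pseudogenes was 5.65 ± 1.10 FPKM in controls and 0.988 ± 0.373 in mimic samples (SD, n = 3). Of these 13 had a lower mean in mimic samples, 7 were listed at 0 in every sample, and PHBP9 alone made up 3.004 FPKM of the control mean. The pseudogenes were taken by name and annotation, and their likeness to PHB in sequence was not measured. How reads were divided between them and PHB is uncertain.

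TXN2, the thioredoxin of mitochondria, has 2 8mers in a 3′ UTR of 768 bases. It was at 24.5, 22.6 and 26.8 FPKM in controls and 34.4, 35.2 and 31.4 in mimic samples. All mimic samples were higher (0.44, SE 0.13, limma adjusted p = 0.0199). The call was lost after GC and length correction (0.29, adjusted p = 0.109) and without control sample 1, control sample 2 or mimic sample 2 (0.0627 to 0.0867), within a range of 0.00171 to 0.115. DPYD, the first enzyme of pyrimidine breakdown and the one that inactivates fluorouracil, overlapped between groups at 2.32 to 3.66 FPKM in controls and 2.15 to 3.39 in mimic samples, with sample 2 the highest and sample 3 the lowest in each (95% interval -0.51 to 0.45).

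Of 13 partners of these 4 genes 10 were tested, with 2 lower (20%, beside 39.6% of all genes) and 1 higher (10%, beside 12%). After scaling 2 were lower and 4 higher, beside 27.4% and 26.9% of all genes. CYP1A1, a cytochrome of the same family as CYP1B1, fell from 47.2 ± 1.72 to 5.72 ± 0.453 FPKM (SD, n = 3; -2.94, SE 0.12), and AHR, the receptor that induces both, from 15.2 ± 1.87 to 6.71 ± 0.891 (-1.12, SE 0.15). TXNRD2, the reductase that recycles TXN2, rose from 15.8 ± 2.85 to 30.7 ± 6.80 (0.93, SE 0.20).

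In the limma fit, the partner lists with 0 genes called in a direction (higher for the FOXO and SP and the death receptor lists, lower for the RXR list) also had 0 at an unadjusted p under 0.05. The partner lists were set beside all tested genes. Among tested protein-coding genes the share lower was smaller, at 32.7%, and the share higher was 14%.

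A further 14 genes also reported as miR-27 targets were set beside the 29. Of these 8 were tested. On the deposited scale 3 were lower (37.5%, beside 39.6% of all genes) and 1 higher (12.5%, beside 12%). After scaling none was lower and 1 was higher, beside 27.4% and 26.9% of all genes. Without control sample 2 or mimic sample 3, 1 was lower. The antioxidant response factor gene NFE2L2 went from 44.6 ± 4.49 to 23.3 ± 7.30 FPKM (SD, n = 3; -0.97, SE 0.24) and SPRY2, a feedback inhibitor of receptor kinases, from 19.1 ± 3.34 to 12.8 ± 0.792 (-0.54, SE 0.16). PINK1, a kinase of mitochondrial quality control, was higher, at 14.6 ± 2.96 against 41.1 ± 6.61 (1.47, SE 0.19).

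Fold changes were then set against the strength of the seed match, with counts and medians only. The 15 tested members with an 8mer had a median log2 fold change of -0.23, and 4 were lower and 3 higher. With 8mers counted only outside coding exons of protein-coding transcripts, 13 tested members had a median of -0.15, with 4 lower and 3 higher. All 816 tested genes with an 8mer had a median of -0.31, with 42% lower and 8.7% higher. The 8 members with a 7mer but no 8mer had a median of -0.63, with 5 lower and none higher, against -0.26, 36.3% and 11.5% for all genes of that class. The 4 with a 6mer or no match had a median of -0.04, with none lower and 1 higher, against -0.13, 30.4% and 15.5%. The higher one was RXRA, of which little sequence was searched. After median-of-ratios scaling, 2 members with an 8mer were lower and 5 higher, beside 205 and 189 of all 816 such genes. On that scale 3 members with a 7mer but no 8mer were lower and none higher, beside 639 and 770 of 2825 genes, and none with a 6mer or no match was lower and 2 were higher, beside 1500 and 2710 of 7886. After GC and length correction the medians of all genes lay closer together. They were -0.29 with an 8mer, -0.24 with a 7mer but no 8mer, and -0.21 with a 6mer or no match. Those of the members were -0.15, -0.56 and -0.19. Both of the largest falls, in CYP1B1 and SMAD2, were in members with 7mers.

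**Figure D3:**
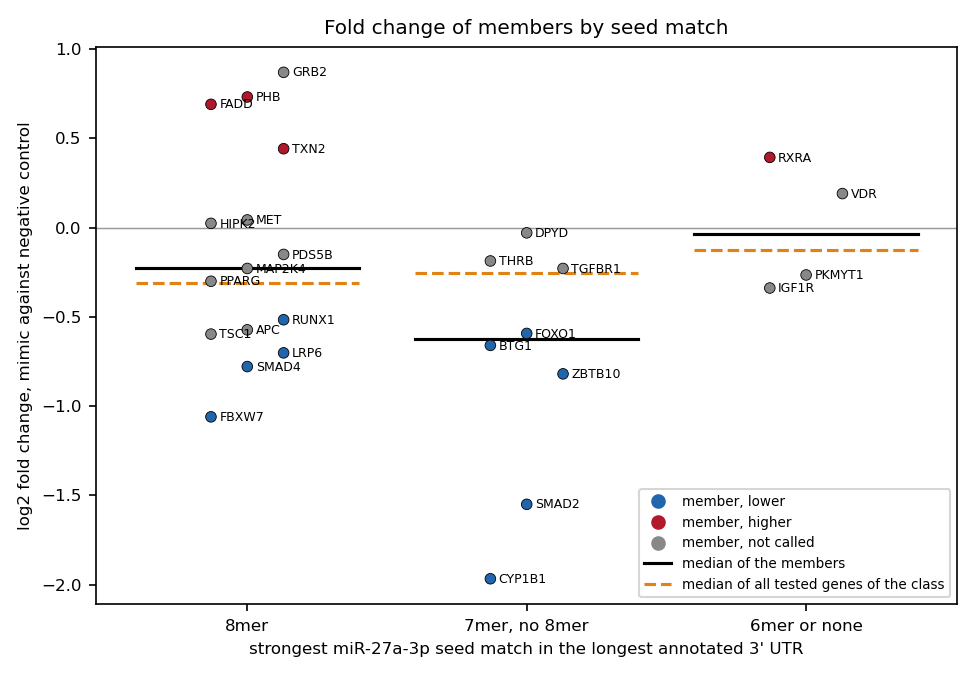
Log2 fold change (mimic against negative control) of the 27 tested members by the strongest seed match in the longest annotated 3′ UTR, coloured by call. Black lines are medians of the members and dashed lines medians of all tested genes of the class. The 8mer column spans FBXW7 at -1.06 to GRB2 at 0.87, and its members' median of -0.23 lies above the -0.31 of all genes with an 8mer.

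Called members were also compared in base composition and length. The 9 lower members had transcripts of 38.7% to 47.1% GC and annotated 3′ UTRs with a median of 4334 bases. The 4 higher members, RXRA, TXN2, FADD and PHB, had 54.15% to 60.6% GC and annotated 3′ UTRs of 405 to 943 bases. The 405 bases are those of RXRA, whose exons cover 11083 bases, so its annotated 3′ UTR may be incomplete. The GC ranges of lower and higher members did not overlap, and the 14 members not called covered 36.5% to 66.2%. Across the 27 members, Spearman's rho of fold change was 0.508 with GC content and -0.590 with annotated 3′ UTR length, RXRA included at 405 bases. Over all tested genes these were 0.261 (n = 14402) and -0.169 (n = 11527). All points come from the same 6 libraries, and genes are not independent replicates. After GC and length correction 9 members were lower, with PPARG and PKMYT1 gained and RUNX1 and BTG1 lost, and 2, FADD and PHB, were higher, where 38.9% and 9.67% of all genes were, and the part of composition in the other results was not tested.

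**Figure D4:**
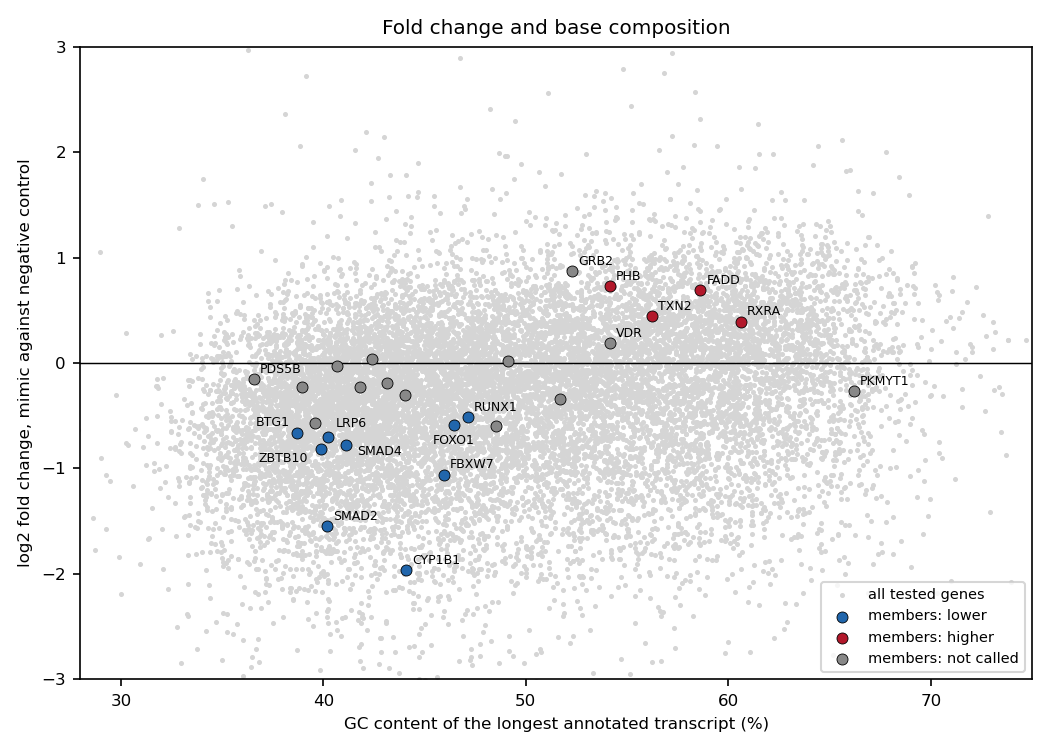
Log2 fold change (mimic against negative control) against the GC content of the longest annotated transcript for all tested genes (small grey points; 71 fall outside the axes) and the 27 tested members (large points, coloured by call). The 4 higher members lie at 54.15% GC or more and the 9 lower members at 47.1% or less.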

How the data were processed

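Total RNA of 6 samples was sequenced from libraries made with a messenger RNA kit, per the labels' protocols. The authors deposited FPKM values, 1 per gene and sample, per the file headers. The submitters' processing notes name FastQC, HISAT2 and hg38. Tool versions, how FPKM was computed, use of strand and the gene annotation are not given in the sources used. The 6 single-sample tables equal the series table. FPKM is a share of the library, so a rise in some genes lowers the values of the rest.

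The 14439 genes averaging 1 FPKM or more were fitted with limma 3.58.1 in R 4.3.3 (trend, robust) on log2(FPKM + 0.5), two-sided, with Benjamini-Hochberg adjustment over all of them at 0.05. The fit was tested on simulated data for 14439 genes, and the share of changed genes found was 4.5% at 1.5-fold, 51.5% at 2-fold and 85.1% at 4-fold, beside 2 false calls. These rates hold for 200 changed genes and not for the many calls here. Lengths, GC content and 3′ UTRs came from GENCODE 29, where 57836 of 58174 identifiers matched and 56007 had the same position.

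The members and all lists were chosen with earlier results of these data known. Named genes are all members and, per list, up to 2 lower and 2 higher called genes with the smallest p. Alternatives changed the pseudocount, filter, scaling, moderation, replicate block, GC and length correction, and samples.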

Additional observations from a re-analysis of the deposited data

How the results depend on the processing

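On the deposited scale 9 members were lower and 4 higher (median -0.27 on the log2 scale), and 5718 of all tested genes were lower and 1735 higher. Members lower and higher numbered 5 and 7 after median-of-ratios scaling, after centring on the median of all tested genes and after quantile normalization, with medians of 0.0423, 0.0652 and 0.11. All tested genes numbered 3889 higher after median-of-ratios scaling, 3679 lower and 4063 higher after centring, and 3289 lower and 3592 higher after quantile normalization, which also turned DPYD to 0.57 and called it, and called HIPK2 higher. The cause of these shifts was not tested. With no filter on low values 10 members were lower and 2 higher, with 8755 of all genes lower, and at a mean of at least 5 FPKM 4 members and 2916 genes were lower, since only 16 members and 9456 genes were tested. GC and length correction left 2 members higher, beside 9.67% of all genes. Without sample 3 of both groups 2 members were higher and the median was -0.36, with the share of all genes not given here.

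Leaving out 1 sample gave 8 to 9 members lower and 2 to 4 higher, medians of -0.32 to -0.23, and 4695 to 5732 genes lower and 1256 to 1822 higher. The count of 2 higher came without control sample 2, control sample 3 or mimic sample 2. With the replicate number as a block 9 members were lower and 5 higher, beside 41.5% and 14.7% of all tested genes. In that fit GRB2 (0.87, limma adjusted p = 0.00853) and TSC1 (-0.60, 0.0158) were called and RUNX1 (0.0501) was not. Adding GC and length correction to the block, 12 members were lower and 3 higher. The shares of all genes are not given here for that fit, so those counts are not read as a result about the members. Deviations of samples with the same number correlated at 0.18, -0.05 and 0.22 across genes for numbers 1, 2 and 3. Mimic samples 1 and 3 correlated best with the control of the same number, and mimic sample 2 with control sample 3 (0.11). The main fit did not treat the numbers as pairs, and whether samples were paired was not settled. The 25 members with a seed match became 24 to 27 under the other searches, of which the restriction to protein-coding transcripts was chosen after seeing the data. Exon lengths and the implied value of 1 fragment give about 42 to 56 fragments in controls and 2 to 5 in mimic samples for MSTN, and 6 to 14 and 0 to 2 for SFRP1, so their fold changes rest on few fragments.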
